A study of Mus musculus with 6 samples.

Results

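The S100 genes encode small calcium-binding proteins of the EF-hand family, and 10 of them, *S100a1*, *S100a4*, *S100a6*, *S100a8*, *S100a9*, *S100a10*, *S100a11*, *S100a13*, *S100a16* and *S100b*, were followed in the hearts of *Clk4*-cKO mice. Every non-control probe whose gene symbol in the deposited annotation is one of these 10 was taken, which gave 12 probes of 56605 on the array. RNA from the heart of each of 3 mice given AAV NEXN-WT and 3 given AAV NEXN-S437E was labelled with Cy3 and hybridised to an Agilent mouse expression array, 1 array per mouse. NEXN is nexilin, an actin-binding protein of the Z-disc, and S437E replaces a serine with glutamate to mimic its phosphorylated form.

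By the study's description, which the arrays do not check, the animals of both groups were male *α-MHC-MerCreMer*; *Clk4* fl/fl mice on a C57BL/6J background, injected intravenously with AAV9 at 5 weeks of age. Tamoxifen was given at 6 to 8 weeks of age to delete the floxed *Clk4* exons 3 to 10 in cardiomyocytes, by a Cre that the α-MHC promoter drives, in both groups. The groups differ by design in the NEXN form that the vector supplies. The vector used the CMV promoter and a P2A-GFP cassette, and the CMV promoter is not specific to cardiomyocytes. In which cells it was expressed was not measured here. The comparison is between the vectors, and mice that keep *Clk4* were not analysed here.

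S100 proteins act mostly as dimers that open a hydrophobic face when calcium is bound, and they use it to dock on partner proteins. Inside cells they tune calcium pumps, the cytoskeleton and membrane traffic, and some are secreted and read by receptors such as RAGE and TLR4. In the heart S100A1 is the cardiomyocyte member, known for its binding to the ryanodine receptor and the SERCA2a pump. S100A8 and S100A9 form the myeloid dimer calprotectin, and S100B is best known from glia.

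Of the 10 genes, 9 lie on chromosome 3 by the probe coordinates of the files, which are on mm9, and *S100b* lies on chromosome 10. The calcium-binding loop of EF-hand proteins can be read in 2 of the 12 S100 probes. Both sequences below, from the deposited annotation, hold in an open reading frame the 36 bases that match the EF-hand loop pattern, shown in capitals. They are shown because the *S100a1* probe gave the smallest p of the 12 and the *S100a8* probe the widest spread. Only 14 of the 56689 probe sequences in that annotation held the pattern in this way.
*S100a1* probe A_55_P1979645, chr3:90315191-90315250 (mm9, minus strand): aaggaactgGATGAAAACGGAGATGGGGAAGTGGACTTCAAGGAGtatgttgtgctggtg
*S100a8* probe A_51_P256827, chr3:90473778-90473837 (mm9, plus strand): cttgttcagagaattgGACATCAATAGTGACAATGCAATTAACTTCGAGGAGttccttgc

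The array facts that touch the S100 values were read first. NEXN-WT replicate 1 stood apart from its group. Its mean absolute log2 difference from the other NEXN-WT arrays was 0.38 and 0.44 over the tested probes, against 0.25 between those arrays and 0.19 to 0.29 among the NEXN-S437E arrays. All 6 arrays shared 1 slide and 1 scan, where row 1 held all NEXN-WT arrays plus NEXN-S437E replicate 1, and row 2 held NEXN-S437E replicates 2 and 3. The leading *Clk4* and *Nexn* probes differed by 0.13 and 0.02 on the log2 scale, but neither probe was placed in an exon or tells the vector's transcript from the mouse's own, so they do not check the labels. An *Esr1* probe (A_55_P2030883) read 3.13, 5.82 and 5.21 with NEXN-WT, and no NEXN-S437E array had it well above background. Its log2 fold change was −10.16 (adjusted p = 0.00114 from limma). With the NEXN-S437E values raised to the lowest signal well above background on each array, the fall was still at least 255-fold. The other tested *Esr1* probes were at −0.99 and −0.58, with overlapping groups. The MerCreMer protein carries estrogen receptor ligand-binding domains, and whether A_55_P2030883 reads the transgene was not tested. If it does, the NEXN-S437E hearts lack the signal that the described genotype would give. A difference in the transgene and one in the vector cannot be told apart in these arrays.

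All values are log2 processed signals relative to the 75th percentile of the same array, so a value of 0 is a signal equal to that percentile. limma was run on the 22998 probes that 1 group or both had well above background on each of its 3 arrays. All 12 S100 probes lay well above background on all 6 arrays and were tested. The other 7 S100 genes of the array (*S100a2*, *S100a3*, *S100a5*, *S100a7a*, *S100a14*, *S100g* and *S100z*, 8 probes) were not well above background, except *S100a3* on 1 NEXN-WT array, and none of them was tested. Levels are compared only within a probe, because the signals of different probes are not on one scale.

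No S100 probe passed a 2-fold change with an unadjusted p under 0.05. By that rule 0.735% of all tested probes were higher with NEXN-S437E and 1.78% lower. None of the 12 passed a Benjamini-Hochberg adjusted p of 0.05 in limma, which 0.161% of tested probes did. At an unadjusted p under 0.05 alone 2 of the 12 were higher, *S100a1* and *S100b*, where 10.5% of tested probes were, and 0 were lower, where 6.7% were. Groups did not overlap with NEXN-S437E higher for the same 2 probes (18.7% of tested probes) and with NEXN-S437E lower for 1, *S100a11* (9.17%). The share past an unadjusted p in either direction, 2 of 12, is close to that of the array. The median log2 fold change of the 12 probes was 0.06, beside 0.09 over all tested probes, and they ranged from −0.26 to 0.69. The members' median turned negative with quantile normalization (−0.09), normexp (−0.09), the percentile over detected probes (−0.05) and the deposited values (−0.09). It was also just below 0 with array weights (−0.02) and without NEXN-WT replicate 1 (−0.01), NEXN-WT replicate 2 (−0.0063) or NEXN-S437E replicate 1 (−0.01). Under those first 4 settings the median of all probes was 0.03, 0.09, −0.02 and 0.02. In each of them *S100a11* was lower by the unadjusted p, and the number of higher probes was 2 with normexp and 1 with the others.

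**Figure D1:**
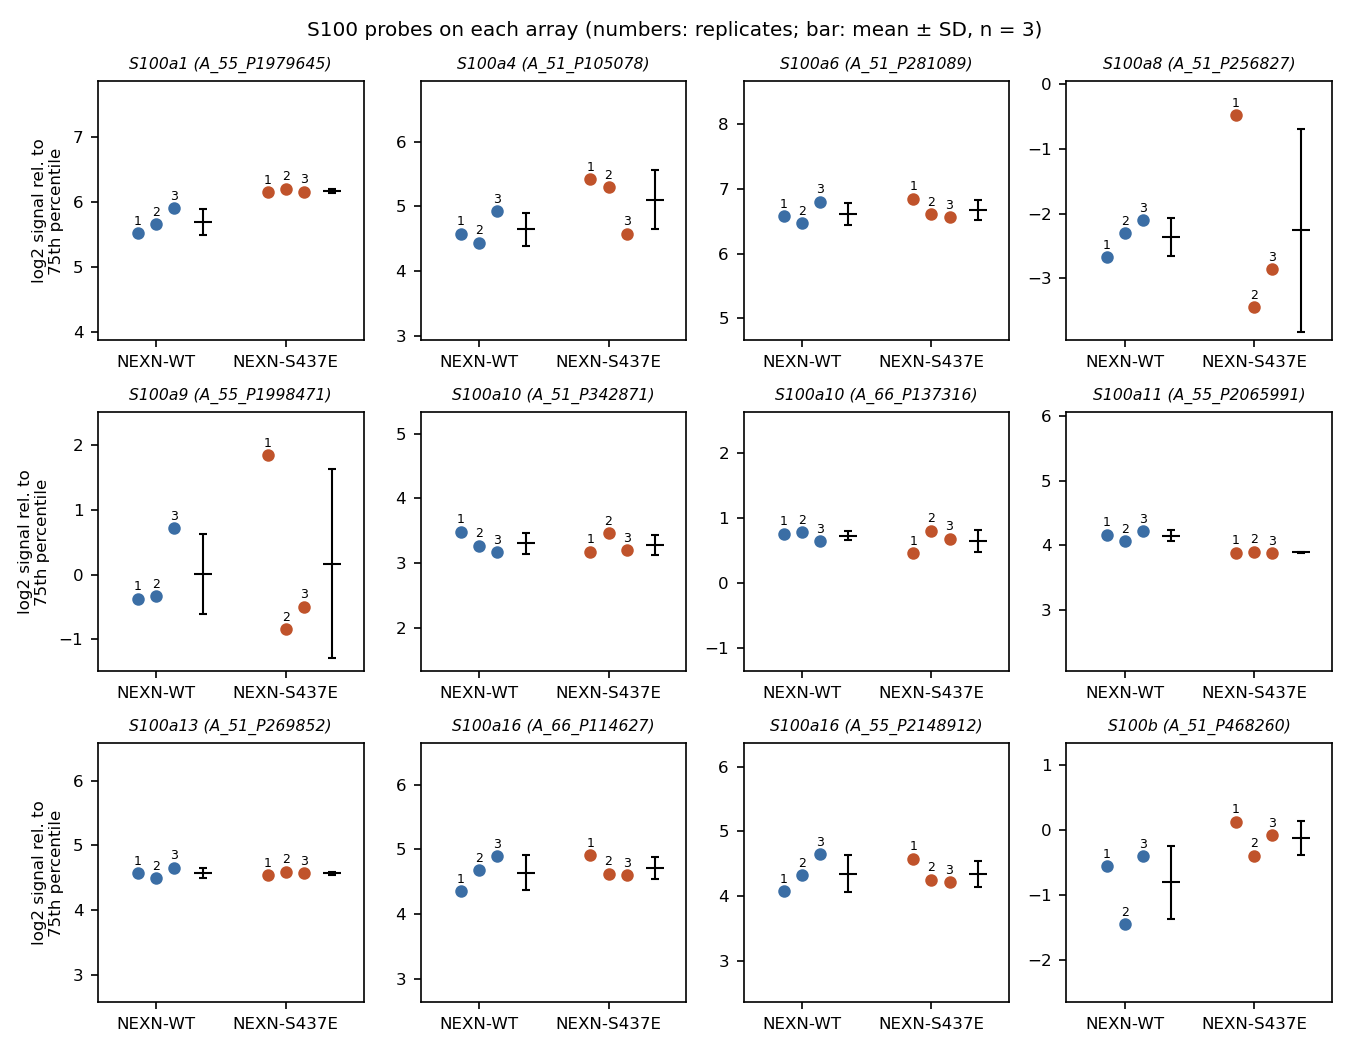
Log2 signal relative to the array's 75th percentile (vertical axis, 4 log2 units in every panel) of each of the 12 S100 probes on the 3 NEXN-WT (blue) and 3 NEXN-S437E (red) arrays, numbered by replicate, with the group mean ± SD beside the points. Most panels show overlapping groups within a range of less than 1 log2 unit, and *S100a8* and *S100a9* stand out through NEXN-S437E replicate 1, at −0.47 and 1.85.

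**Figure D2:**
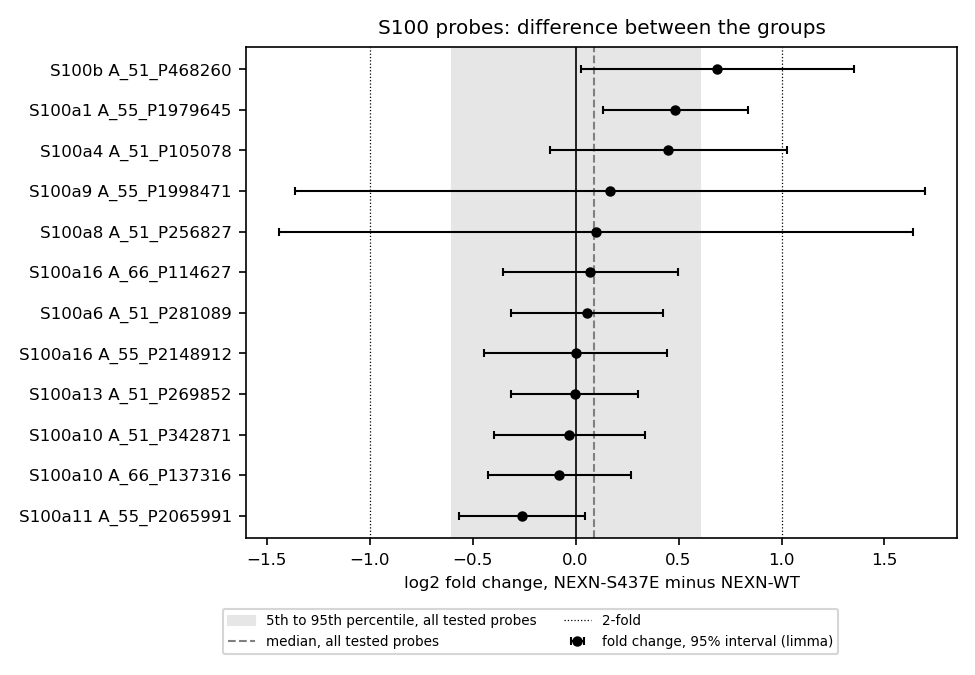
Log2 fold change, NEXN-S437E minus NEXN-WT, of each S100 probe with its 95% interval from limma (points and bars), over the range that holds the central share of all tested probes (grey band, −0.60 to 0.60, the 5th to 95th percentile) and their median (dashed, 0.09). The intervals of *S100b* and *S100a1* lie above 0, and those of *S100a8* and *S100a9* run past 2-fold (dotted) on both sides.

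*S100a1*, the calcium-cycling S100 of cardiomyocytes, was higher with NEXN-S437E by the unadjusted p. It read 5.52, 5.65 and 5.90 with NEXN-WT and 6.15, 6.21 and 6.16 with NEXN-S437E. Every NEXN-S437E heart lay above every NEXN-WT heart, and the NEXN-S437E hearts lay within 0.06 of each other. The log2 fold change was 0.48 (95% interval 0.13 to 0.84, a 1.40-fold difference, unadjusted p = 0.0132 and adjusted p = 0.200 from limma). It lay above 0 in all 20 alternatives tried, from 0.26 to 0.59, with an unadjusted p under 0.05 in 17 of them. The deposited normalized log2 values gave 0.26 (95% interval −0.03 to 0.54, unadjusted p = 0.0693 from limma), still without overlap. With slide row as a block it was 0.46 (unadjusted p = 0.0795 from limma). That fit sets NEXN-S437E replicate 1 alone against NEXN-WT and assumes that this array varies like the others, here and for the genes that follow. Without NEXN-WT replicate 1, the array that stood apart, it was 0.40 (unadjusted p = 0.0222 from limma).

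Cardiomyocyte markers were read beside *S100a1*. All 8 of them (*Myh6*, *Tnnt2*, *Tnni3*, *Actc1*, *Myl2*, *Myl3*, *Actn2* and *Ckm*) had a higher leading probe with NEXN-S437E, with a median log2 fold change of 0.42 and a range of 0.23 to 0.60, where 60.8% of all tested probes were higher and their median was 0.09. Of these, 3 were higher by the unadjusted p, *Tnni3*, *Myh6* and *Tnnt2*, as were 10.5% of all tested probes, and none passed the adjusted p. Their summed level, a sum of linear signals in units of the array's 75th percentile in which bright probes weigh most, ran from 2059 to 2735 with NEXN-WT and from 3244 to 3350 with NEXN-S437E. The lowest sum was that of NEXN-WT replicate 1, the array that stood apart. There *Actc1* read 8.54, against 9.18 and 9.26 on the other NEXN-WT arrays and a NEXN-S437E mean of 9.23. *Ckm* read 4.56 there, against 5.86 and 6.03 and a NEXN-S437E mean of 6.06. Only *Myl2* went the other way, at 8.80 there against 8.50 and 8.37. The part of these markers in the *S100a1* difference was not tested. In whole heart RNA, more cells of a type and more RNA per cell cannot be told apart.

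The partners through which S100A1 acts on calcium cycling were read from a list of 20 S100 partner genes. Of the 17 tested, 2 were higher and 1 lower by the unadjusted p and none by the adjusted p, with a median log2 fold change of 0.12. These counts are near the shares of all tested probes, 10.5% higher and 6.7% lower, and the median is near 0.09. The higher ones were named after their values were seen. *Atp2a2*, the SERCA2a pump, went from 6.00, 6.46 and 6.33 to 6.56, 6.66 and 6.81, a log2 fold change of 0.42 (adjusted p = 0.267 from limma). *Ttn*, the giant sarcomere spring, had 0.43 (adjusted p = 0.260 from limma). The interval of the *Ryr2* leading probe, for the ryanodine receptor, ran from −0.17 to 1.00 around 0.41, and that of *Pln*, the inhibitor of the pump, from −0.02 to 0.87 around 0.43.

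The genes whose pattern over the 6 arrays lay nearest to that of *S100a1* were *Hscb*, *Malsu1* and *Rnf113a2*. The measure was the root mean square difference of values centred on the probe's own mean, over 18906 probes with a symbol that were well above background on all 6 arrays. *Hscb*, a co-chaperone of mitochondrial iron-sulfur cluster assembly, differed by 0.017, *Malsu1*, a factor of the mitochondrial ribosome, by 0.030, and *Rnf113a2* by 0.033. *Hscb* had values of 1.13, 1.31 and 1.55 with NEXN-WT and 1.81, 1.83 and 1.79 with NEXN-S437E. These genes were picked for this likeness, so their own group differences are no further evidence.

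*S100a13*, a gene that helps export FGF1 from the cell, starts 105 bases from *S100a1* on the opposite strand, by the RefSeq start sites on GRCm38.p6. Its values were 4.57, 4.49 and 4.66 with NEXN-WT and 4.54, 4.60 and 4.57 with NEXN-S437E. On this scale the groups overlapped, and the log2 fold change was −0.0044 (95% interval −0.31 to 0.30). It was lower under other scalings, at −0.16 with quantile normalization, −0.15 with normexp and −0.11 with the percentile over detected probes. On the deposited values it was −0.17 (unadjusted p = 0.227 from limma), with all NEXN-S437E hearts below all NEXN-WT hearts. *Fgf1*, its cargo, had a log2 fold change of 0.30 with an interval of −0.09 to 0.69. The difference between *S100a1* and *S100a13* was not tested.

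*S100b*, the S100 best known from glia and described in cardiomyocytes under stress, had the largest log2 fold change of the 12 probes. Its values were −0.56, −1.45 and −0.40 with NEXN-WT and 0.13, −0.40 and −0.08 with NEXN-S437E. NEXN-WT replicate 2 was the lowest, and the groups were parted only by −0.4018 in NEXN-WT replicate 3 and −0.3972 in NEXN-S437E replicate 2. The log2 fold change was 0.69 (95% interval 0.03 to 1.35, unadjusted p = 0.0431 and adjusted p = 0.275 from limma). Without NEXN-WT replicate 2 it was 0.36 (unadjusted p = 0.125 from limma), while without NEXN-S437E replicate 1 it was 0.57 (unadjusted p = 0.133 from limma) and without NEXN-S437E replicate 3 it was 0.67 (unadjusted p = 0.0869 from limma). On the deposited values it was 0.69 (unadjusted p = 0.0498 from limma), and there the groups overlapped. With slide row as a block it was 0.93 (unadjusted p = 0.0624 from limma). It lay above 0 in all 20 alternatives, from 0.36 to 1.14 (array weights), with an unadjusted p under 0.05 in 12 of them. The study's unpaired t-test was not among these 12, with an unadjusted p of 0.129, and of 0.133 on the deposited values.

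Among 8 glial markers, 4 were tested. *Sox10* and *Erbb3* had log2 fold changes of 0.58 and 0.56, neither past the unadjusted p. *Mbp*, a myelin protein gene, was lower by the unadjusted p with −0.79. *Gfap* and *Cdh19* were not well above background on any array, and the summed level of the tested markers was 1.92 to 2.72 with NEXN-WT and 2.20 to 2.66 with NEXN-S437E, in units of the percentile. The part of glial cells in the *S100b* values was not tested.

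*S100a8* and *S100a9*, the calprotectin subunits, showed the widest spread of the family, and it lay within the NEXN-S437E group. The *S100a8* values were −2.67, −2.30 and −2.10 with NEXN-WT and −0.47, −3.44 and −2.86 with NEXN-S437E. Those of *S100a9* were −0.37, −0.33 and 0.72 with NEXN-WT and 1.85, −0.84 and −0.49 with NEXN-S437E. For both genes NEXN-S437E replicate 1 was the highest of the 6 arrays and NEXN-S437E replicates 3 and 2 the lowest, and the order of all 6 arrays was the same. The SD of the NEXN-S437E hearts was 1.57 for *S100a8* and 1.46 for *S100a9*, larger than in 99.9% of tested probes for each gene. *S100a8* was dim, with processed signals of 14.7 to 79.4, though well above background on each array, and those of *S100a9* ran from 89.4 to 397.7.

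The sign of the mean difference of this pair turned on single hearts. The log2 fold change was 0.10 for *S100a8* (95% interval −1.44 to 1.64) and 0.17 for *S100a9* (−1.36 to 1.70), so a 2-fold change in either direction lies inside both intervals. Without NEXN-S437E replicate 1 both turned lower, to −0.79 for *S100a8* (95% interval −1.40 to −0.19, unadjusted p = 0.0179 and adjusted p = 0.271 from limma) and −0.67 for *S100a9* (−1.52 to 0.18). Without NEXN-WT replicate 1 they were −0.06 and −0.02. Within slide row 1, NEXN-S437E replicate 1 lay above the NEXN-WT mean by 1.88 and 1.84. Slide row 2 holds NEXN-S437E arrays only and gives no comparison.

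Neutrophil markers were read in the same hearts. Of 12 neutrophil markers, 8 (*Mpo*, *Cxcr2*, *Retnlg*, *Camp*, *Ltf*, *Ngp*, *Mmp8* and *Mmp9*) were not well above background on any array, and *Ly6g* was so on 1 NEXN-S437E array. The tested ones were *Csf3r*, *Elane* and *Lcn2*, with log2 fold changes of 0.16, 0.41 and 0.12, none past the unadjusted p. In NEXN-S437E replicate 1, in which *S100a8* and *S100a9* peaked, *Csf3r* read 5.26, *Elane* −2.43 and *Lcn2* 0.73, against ranges of 4.81 to 5.18, −2.58 to −1.62 and −0.56 to 1.77 on the other arrays. *Csf3r* was thus at its highest in that heart, 5.26 against 5.18 on the next array, and *Elane* and *Lcn2* lay within the range of the others. The summed level of these markers was 31.7 to 36.6 with NEXN-WT and 35.3 to 40.1 with NEXN-S437E, in units of the percentile. *Csf3r*, the brightest probe, makes up most of this sum on every array, so it adds little to the *Csf3r* values.

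**Figure D3:**
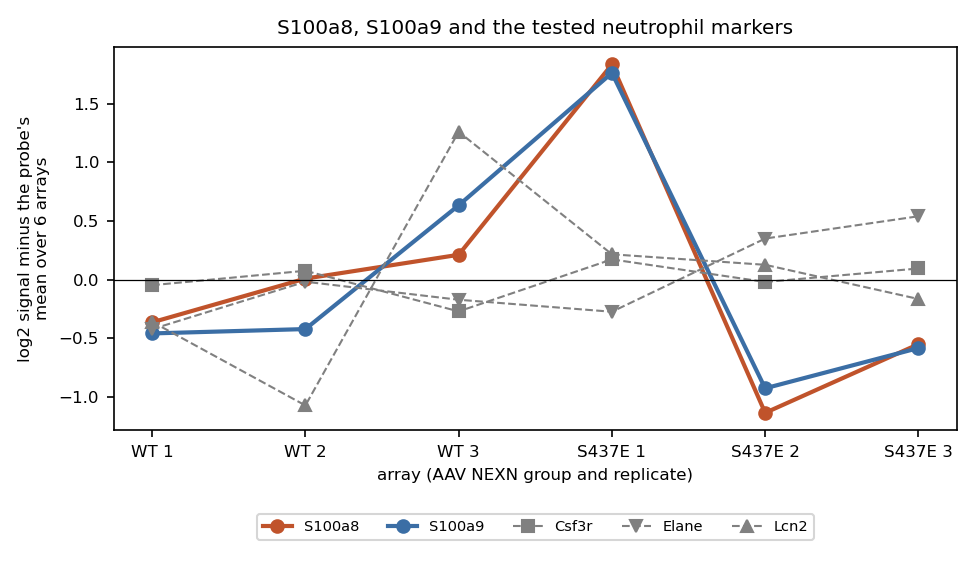
Log2 signal of *S100a8* (red), *S100a9* (blue) and the 3 tested neutrophil markers (grey, dashed) on each array, minus the probe's own mean over the 6 arrays (vertical axis). *S100a8* and *S100a9* have the same order over the arrays and peak in NEXN-S437E replicate 1. There *Csf3r* is also at its highest, 5.26 against 5.18 on the next array before centring, and *Elane* and *Lcn2* are not.

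Because *S100a8* and *S100a9* had the same order over the arrays, their promoters were read side by side. The RefSeq promoter sequences (GRCm38.p6) below run from 100 bases before the annotated start through the first 30 bases of the transcript, with the TATAAA motif in capitals. The motif was searched on both strands of 300-base windows, 250 bases before to 50 bases after the start, and 13.6% of 32851 such windows held it. It was found for 3 of the 9 members with a sequence there, *S100a4*, *S100a8* and *S100a9*. In *S100a9* it begins at the annotated start itself. The other motifs searched were not shared by the pair. GGGCGG was found for *S100a9*, *S100a11* and *S100a16* (35.7% of windows), CCAAT for *S100a6* and *S100b* (37.4%), and TGANTCA for *S100a11* and *S100a16* (7.81%). A match is a description of the letters and not a mapped site.
*S100a8*, chr3:90668971-90669100 (GRCm38.p6, plus strand): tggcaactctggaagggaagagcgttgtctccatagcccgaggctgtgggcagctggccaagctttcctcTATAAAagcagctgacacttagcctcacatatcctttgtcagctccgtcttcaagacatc
*S100a9*, chr3:90695692-90695821 (GRCm38.p6, minus strand): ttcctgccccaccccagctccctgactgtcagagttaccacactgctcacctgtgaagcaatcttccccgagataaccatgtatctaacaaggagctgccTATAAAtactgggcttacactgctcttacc

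The receptors that read extracellular S100 proteins were a list of 6 genes, all tested. By the unadjusted p, 2 leading probes were higher and 0 lower, with a median log2 fold change of 0.26, beside 10.5% higher, 6.7% lower and a median of 0.09 over all tested probes. The higher ones, named after their values were seen, were *Cd36*, a fatty acid and calprotectin receptor, at 0.50 (adjusted p = 0.223 from limma), and *Bsg*, which encodes CD147, at 0.55 (adjusted p = 0.223 from limma). *Tlr4* was 0.19 (95% interval −0.14 to 0.51) and the leading *Ager* probe, for RAGE, −0.19 (−0.51 to 0.14). No receptor passed the adjusted p.

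*S100a4*, a member found in fibroblasts and leukocytes and also called fibroblast-specific protein, was not called in either direction. Its values were 4.58, 4.44 and 4.93 with NEXN-WT and 5.42, 5.30 and 4.58 with NEXN-S437E. NEXN-S437E replicates 1 and 2 lay above all NEXN-WT hearts and replicate 3 within them. The log2 fold change was 0.45 (95% interval −0.13 to 1.03, unadjusted p = 0.109 and adjusted p = 0.376 from limma), and it lay above 0 in all 20 alternatives, from 0.28 to 0.77. Leaving out NEXN-S437E replicate 3, the low array, gave 0.71 (unadjusted p = 0.0117 and adjusted p = 0.369 from limma), the only alternative with an unadjusted p under 0.05. Leaving out NEXN-S437E replicate 1 gave 0.29 (unadjusted p = 0.313 from limma).

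Fibroblast markers were read in the same hearts. Of 8, 6 were lower by the unadjusted p, as were 6.7% of all tested probes, and 3 also by 2-fold, as were 1.78%, with a median log2 fold change of −0.82, although *Dcn*, the decorin gene that fibroblasts express broadly, was at −0.08. Of 8 activated fibroblast markers, the 7 tested were lower by 2-fold and the unadjusted p (1.78% of all tested probes), among them *Postn* at −2.98 and *Cilp* at −3.81. Their summed level was 81.0 to 357 with NEXN-WT, highest in replicate 1, and 23.5 to 26.1 with NEXN-S437E. All 8 T and NK cell markers were lower by the unadjusted p (6.7% of all tested probes), with a median of −2.41. Of 9 tested macrophage and monocyte markers 1 was lower by the unadjusted p, *Fcgr1* at −0.74 (named after its value was seen), and 0 were higher, with a median of 0.04. The part of these cells in the *S100a4* values was not tested.

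The annexin-binding members *S100a11* and *S100a10* showed differences smaller in size than those of *S100a1*, *S100b* and *S100a4*. *S100a11*, the partner of annexin A1 and of annexin A6, read 4.17, 4.06 and 4.22 with NEXN-WT and 3.89, 3.90 and 3.88 with NEXN-S437E. Every NEXN-S437E heart lay below every NEXN-WT heart, and the NEXN-S437E hearts lay within 0.02 of each other. The log2 fold change was −0.26 (95% interval −0.57 to 0.05, unadjusted p = 0.0873 and adjusted p = 0.347 from limma). Across the 20 alternatives it stayed below 0, from −0.39 to −0.20, and 6 of them had an unadjusted p under 0.05. On the deposited log2 values it was −0.39 (unadjusted p = 0.0195 from limma), and with slide row as a block −0.26 (unadjusted p = 0.213 from limma). For 1 probe alone, the smallest p that exact permutation of these arrays can give is 0.1, two-sided.

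*S100a10*, which pairs with annexin A2 at the membrane and is unusual in not needing calcium, was measured by 2 probes. The leading one, A_51_P342871, read 3.48, 3.27 and 3.17 with NEXN-WT and 3.17, 3.46 and 3.19 with NEXN-S437E. The fold change on the log2 scale was −0.03 (95% interval −0.40 to 0.34), and that of A_66_P137316 was −0.08 (−0.43 to 0.27). *Anxa2*, its partner, had −0.35 (95% interval −0.70 to 0.0017, adjusted p = 0.292 from limma) and *Anxa1*, the partner of S100A11, −0.42 (−1.04 to 0.20). *Anxa5*, the only partner that was lower by the unadjusted p, was at −0.34 (adjusted p = 0.288 from limma). These annexins were named after their values were seen.

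*S100a6*, or calcyclin, a member linked to proliferation and to the ubiquitin adaptor gene *Cacybp*, showed no difference beyond its spread. Its values were 6.58, 6.47 and 6.80 with NEXN-WT and 6.85, 6.61 and 6.56 with NEXN-S437E. The groups overlapped, and the log2 fold change was 0.06 (95% interval −0.31 to 0.42), which turned negative under quantile normalization, normexp and the percentile over detected probes. *Cacybp* had 0.20 (95% interval −0.12 to 0.51).

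*S100a16*, a broadly expressed member, was measured by 2 probes that varied alike. A_66_P114627 read 4.36, 4.68 and 4.89 with NEXN-WT and 4.92, 4.63 and 4.60 with NEXN-S437E. A_55_P2148912 read 4.07, 4.33 and 4.64 with NEXN-WT and 4.58, 4.25 and 4.21 with NEXN-S437E. On both, NEXN-WT replicate 1 was the lowest array. The log2 fold changes were 0.07 (95% interval −0.35 to 0.50) and 0.00080 (−0.44 to 0.45), and both turned negative under the same 3 scalings.

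Other EF-hand calcium sensors were read from a list of 26 genes, of which 24 were tested. By the unadjusted p, 1 was higher and 2 lower, with a median log2 fold change of −0.01, beside 10.5% higher, 6.7% lower and a median of 0.09 over all tested probes. *Tnnc1*, cardiac troponin C, was the higher one, at 0.55 (adjusted p = 0.265 from limma). *Rcn3*, a reticulocalbin of the secretory pathway, and *Efhd2* were the lower ones, at −0.81 and −0.51. A further *Rcn3* probe, A_55_P2848603, was the only probe of the list past 2-fold with an unadjusted p under 0.05, at −1.01 (adjusted p = 0.131 from limma).

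**Figure D4:**
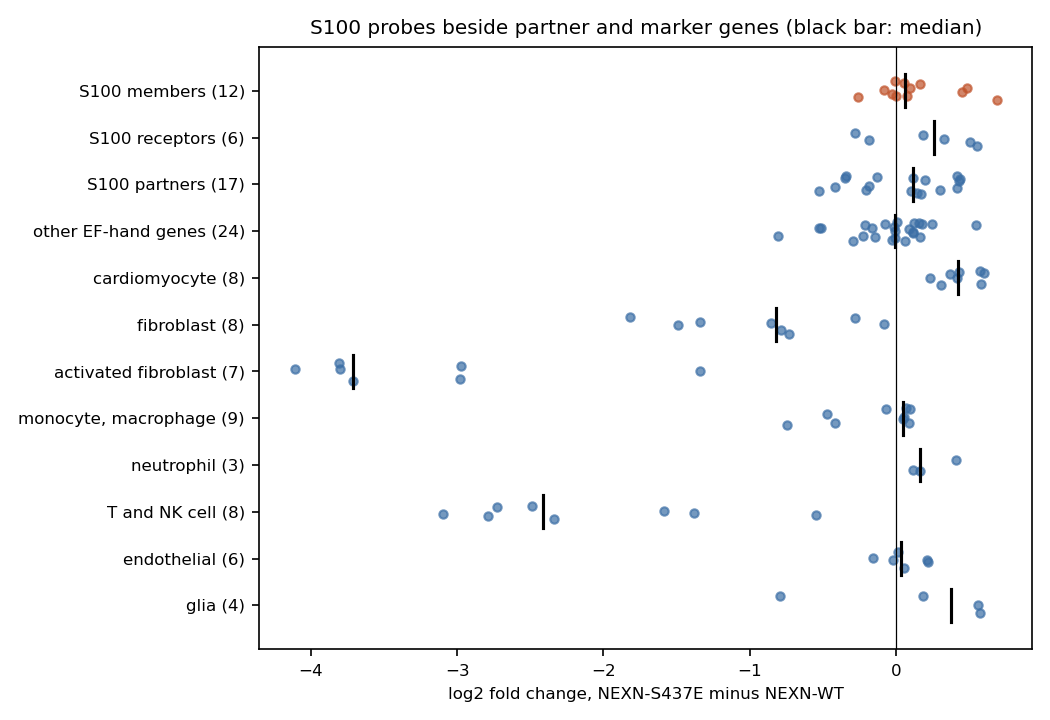
Log2 fold change, NEXN-S437E minus NEXN-WT (horizontal axis), of the 12 S100 probes (red) and of the leading tested probe of each gene in the lists of receptors, partners, other EF-hand genes and cell markers (blue), with the number of points beside each name and a black bar at the median. The S100 probes spread from −0.26 to 0.69, while the activated fibroblast and T and NK cell markers have medians of −3.71 and −2.41.

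**Figure D5:**
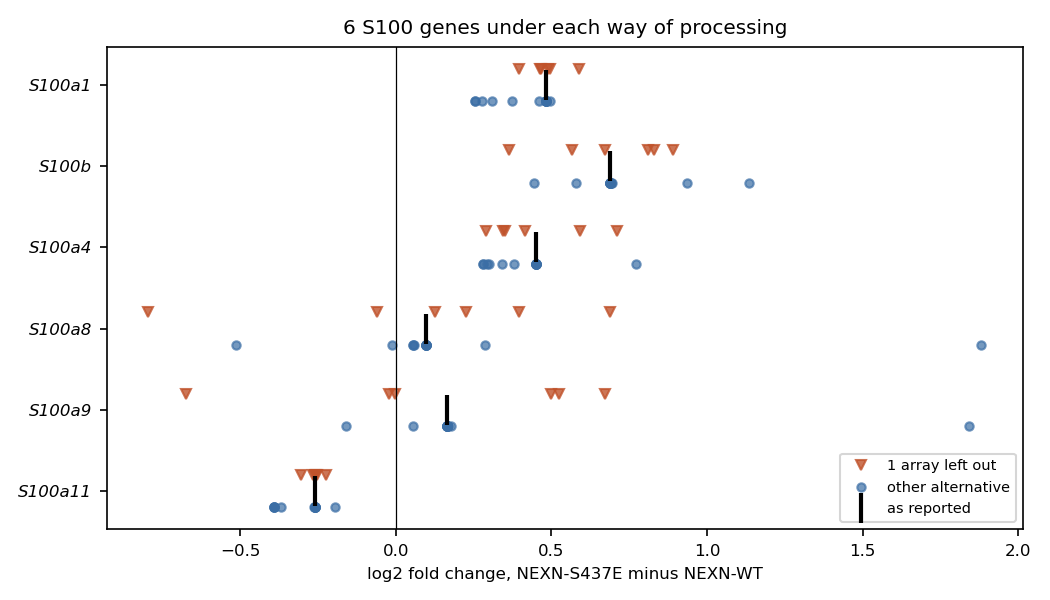
Log2 fold change, NEXN-S437E minus NEXN-WT, of 6 S100 genes as reported (black bar), with 1 array left out (red triangles) and under the other alternatives (blue dots). *S100a1*, *S100b*, *S100a4* and *S100a11* stay on one side of 0, while *S100a8* and *S100a9* run from −0.79 to 1.88 and from −0.67 to 1.84.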

How the data were processed

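The authors scanned the arrays and deposited each array's spot intensities as Feature Extraction 10.7.1.1 wrote them, background-subtracted and not normalized between arrays. They also deposited normalized log2 values, by a method not given in the sources used here. Sorted, these 6 columns are the same, which is what quantile normalization leaves, so the alternatives on deposited and on quantile-normalized values are not independent. From the processed signals, without control and outlier spots, log2 values were taken relative to the 75th percentile of an array's non-control spots and averaged over the spots of a probe. The groups in the labels were tested in limma 3.58.1 under R 4.3.3, adjusting p by Benjamini-Hochberg over 22998 probes. The leading probe of a gene is that of highest mean. All probes of the 10 members are given. The members and gene lists were chosen with earlier results of these data known. No spot was saturated, and with 3 arrays per group the number of arrays limits the precision. The labels do not say more of the mice than the group, so p-values measure the spread between these samples. The test was tested on simulated data. No genome on mm9 was used, so probes were not placed in exons or UTRs. The alternatives were quantile normalization, normexp (offset 50), the percentile over detected probes, the deposited values, no filter or a filter on all 6 arrays, outlier spots kept, the methods' test, a replicate block, an intensity trend, array weights, slide row, 1 probe per gene, each array left out and, added after seeing the data, the methods' test on the deposited values. Values of a few genes of the comparison lists are not reported here.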

Additional observations from a re-analysis of the deposited data

How the results depend on the processing

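The count of S100 probes lower at 2-fold and an unadjusted p stayed at 0 in all 20 alternatives, and the counts of higher probes and of probes past the adjusted p at 0 in 18 and 19 of them. With array weights 1 probe was higher (*S100b*, 1.14), as were 174 of 22987 tested probes, and 2 passed the adjusted p (*S100b* and *S100a1*), where 3818 of all tested probes passed. With slide row as a block 2 probes were higher (*S100a8* 1.88, *S100a9* 1.84), as were 230 of 22998, values of NEXN-S437E replicate 1 alone against NEXN-WT, so the spread comes from the other arrays and the calls say nothing of the group. No array left out changed these 3 counts, which were 0 to 0. *S100a1*, *S100b*, *S100a4* and *S100a11* kept their direction in all 20.

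The other members changed sign, as log2 fold changes, *S100a8* and *S100a9* with a wide range and the rest near 0. *S100a6* was −0.17 with quantile normalization, −0.13 with normexp, −0.054 with the percentile over detected probes and −0.19 with the deposited values by either test. A_55_P2148912 of *S100a16* was −0.14, −0.13, −0.11 and −0.14 under these, and −0.094 with array weights. A_66_P114627 was −0.084, −0.052, −0.038 and −0.090, and −0.052 with array weights. *S100a8* was −0.012 with the percentile over detected probes, which shifts the median of all tested probes by −0.11, and −0.51 with array weights. Array weights gave *S100a9* −0.16, *S100a13* 0.058 and *S100a10* (A_51_P342871) 0.0071. With each array left out, the ranges were −0.033 to 0.15 for *S100a6*, −0.14 to 0.15 and −0.072 to 0.20 for the *S100a16* probes, −0.79 to 0.69 for *S100a8*, −0.67 to 0.67 for *S100a9*, −0.044 to 0.036 for *S100a13*, and −0.12 to 0.058 and −0.16 to 0.015 for the *S100a10* probes. The cause of these sign changes was not tested.

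The replicate numbers did not pair the arrays: deviations of same-numbered arrays correlated at −0.15, −0.03 and −0.18. With the replicate block the 3 counts were again 0, with *S100a1* at an unadjusted p of 0.0328 and *S100b* at 0.0142 from limma.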
